A study of Homo sapiens with 18 samples.

Results

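Small RNA was compared between the nuclear (nuc) and cytoplasmic (cyto) fractions of control HEK293T cells, a human embryonic kidney cell line. The control cells had received a scramble siRNA for 48 hours and carried no other treatment. The 6 libraries used, nuc replicates 1 to 3 and cyto replicates 1 to 3, were picked by their titles from the 18 of the series, which also holds whole-cell RNA (total) and cells given an siRNA against SSB (siSSB). All 18 titles carry the note Plus PNK, and the labels do not describe that step further. The comparison asks where each small RNA lies in the cell. The cells were those of 1 established line, and the series is described as having separate biological replicates.

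Small RNAs differ in where they act. Small nucleolar RNAs (snoRNAs) guide chemical changes in ribosomal RNA inside the nucleolus: C/D box snoRNAs guide methylation of the ribose and H/ACA box snoRNAs guide the conversion of uridine to pseudouridine. Most human snoRNAs are cut out of the introns of a host gene. Transfer RNAs (tRNAs) and microRNAs (miRNAs) are made in the nucleus and act mainly in the cytoplasm, and a miRNA hairpin is cut first in the nucleus by Drosha and then in the cytoplasm by Dicer. Spliceosomal small nuclear RNAs (snRNAs) pass through the cytoplasm for part of their assembly and act in the nucleus.

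Column sums were 21565995 to 44712500 counts in cyto and 113296277 to 158244813 in nuc, and they exceed the number of reads because overlapping features each count the same read. With each set of equal rows counted a single time, the 27 RNA classes summed to 3728752 to 8206660 counts a library. TMM, the scaling used for values between fractions, gave cyto libraries factors of 3.64 to 4.83 and nuc libraries 0.229 to 0.247, so a value between fractions is relative to this choice. In such bulk samples, less RNA per cell and fewer cells that hold it cannot be told apart. The median feature lay at −0.27 on the log2 scale with TMM but at −4.33 when only library sizes were used. For this reason each feature was also read against the total of its own class in each library, which needs no scaling between the fractions. Cyto replicate 3 stood apart in its miRNA share, 1.45% of the class counts against 3.72% and 3.78% in cyto replicates 1 and 2.

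Nuclear libraries were mostly C/D snoRNA, and cytoplasmic libraries mostly ribosomal RNA and tRNA. C/D snoRNAs made up 75.4%, 71.7% and 68.3% of the class counts in nuc replicates 1, 2 and 3, and 5.89%, 5.50% and 7.96% in cyto. H/ACA snoRNAs held 1.88%, 2.75% and 3.20% in nuc and 0.133%, 0.138% and 0.140% in cyto, a share 19.1-fold higher in nuc. The ranges of both classes lay far apart, with no nuc library near a cyto one. The independently transcribed snoRNAs U3, U8 and U13 held 0.326% ± 0.0136 (SD, n = 3) in nuc and 0.0878% ± 0.00524 in cyto. These 3 classes were the ones higher in nuc under every scaling that could be used for them, with log2 fold changes from 2.56 to 9.12 for H/ACA, 1.78 to 8.26 for C/D and 0.19 to 6.81 for U3, U8 and U13, the last not past the threshold under library size alone. Under TMM the values were 6.71 ± 0.40 (SE), 5.92 ± 0.45 and 4.36 ± 0.34.

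In cyto the tRNA total held 19.3%, 18.1% and 18.6% of the class counts, and in nuc 0.936%, 0.827% and 0.773%. The 4 Y RNAs, small RNAs bound by the Ro protein, held 3.98%, 3.76% and 4.63% in cyto and 0.130%, 0.0816% and 0.0718% in nuc, so that their share was 43.7-fold higher in cyto. Vault RNAs, parts of the vault particle, held 1.33% ± 0.232 in cyto and 0.0359% ± 0.0108 in nuc. The miRNA total held 2.98% ± 1.33 in cyto and 0.0828% ± 0.0067 in nuc. Vault RNA, Y RNA and the genomic copies of Y RNA were lower in nuc under all 7 scalings, though none of these passed the threshold with the miRNA total as the scale, and miRNA under all 6 that could be used. The TMM values were −2.76 ± 0.35 for vault RNA, −2.99 ± 0.37 for Y RNA, −2.67 ± 0.36 for miRNA and −2.00 ± 0.36 for tRNA. The tRNA total was lower in nuc under every scaling but the miRNA total, where it was 0.44 and not past the threshold.

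Across classes, 25 of 27 totals passed the test under TMM (92.6% called), 17 higher and 8 lower in nuc (edgeR quasi-likelihood test, adjusted over the classes). For 7 of the 27 the sign was the same under every usable scaling, namely the 3 snoRNA classes above, miRNA, vault RNA, Y RNA and Y RNA copies. The plot of class shares shows the order of the classes from H/ACA snoRNA to Y RNA copies. Ratios of neighbouring classes, which are free of the scaling, passed the test for 1 of 26 pairs (3.85% called): C/D snoRNA exceeded U3, U8 and U13 by 1.57 ± 0.31 on the log2 scale (adjusted p = 0.0211). No pair was called with the replicate block, nor when nuc replicate 1, cyto replicate 1 or cyto replicate 2 was left out (adjusted p of this pair up to 0.235). The order was itself taken from these libraries, so the pairs were not chosen independently of the values tested. The order of the other neighbours was not resolved by this test, and the call of the called pair was lost in these runs.

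**Figure D1:**
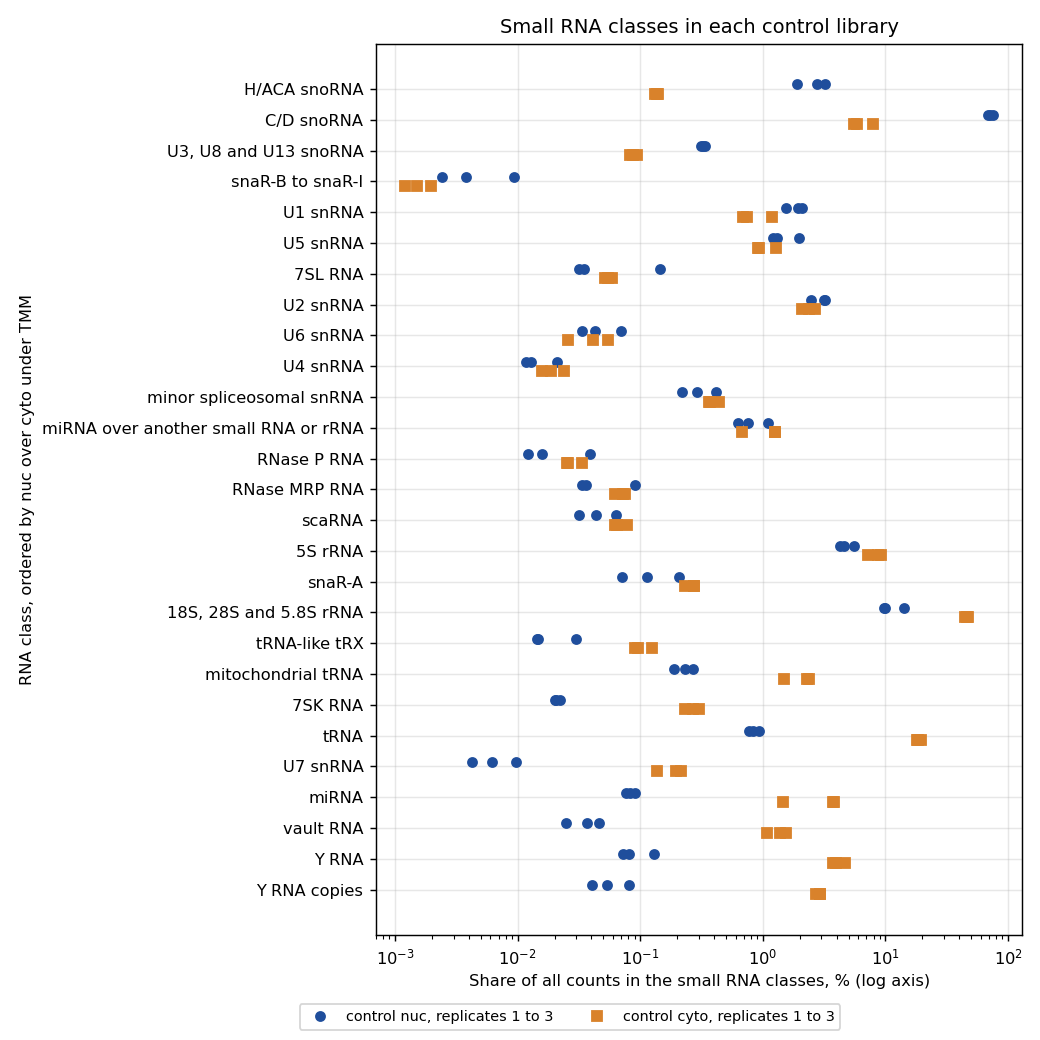
Share of the class counts (%, log axis) of each of 27 RNA classes in the 3 control nuc (circles) and 3 control cyto (squares) libraries, with classes ordered from the highest to the lowest nuc over cyto value under TMM. C/D snoRNA runs from 68.3% to 75.4% in nuc and 5.50% to 7.96% in cyto, and Y RNA from 0.0718% to 0.130% in nuc and 3.76% to 4.63% in cyto.

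Several RNAs known from the nucleus did not follow the snoRNAs. 7SK RNA, which holds the elongation factor P-TEFb inactive in the nucleus, took 0.0203%, 0.0223% and 0.0207% of the class counts in nuc and 0.304%, 0.232% and 0.269% in cyto, 12.7-fold higher in cyto. U7 snRNA, which guides the 3′ end processing of histone mRNA, took 0.00673% ± 0.0028 in nuc and 0.183% ± 0.0411 in cyto. Both were lower in nuc under TMM (−1.22 ± 0.30 and −2.28 ± 0.34) and under every other scaling but the miRNA total, where they were 1.22 and 0.29. The long nuclear RNAs MALAT1 and NEAT1, of which only short fragments enter such libraries, held 214, 153 and 102 and 257, 249 and 198 counts in nuc, and 475, 419 and 698 and 450, 389 and 770 in cyto. MALAT1 did not pass the test under TMM (0.19 ± 0.31, adjusted p = 0.707), and its value ran from −5.80 to 2.68 over the scalings. NEAT1 was at 0.81 ± 0.30 (adjusted p = 0.0477), with a range of −5.14 to 3.24.

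Small Cajal body RNAs (scaRNAs), which guide changes in snRNAs, were at 0.0462% ± 0.0157 in nuc and 0.068% ± 0.0084 in cyto. Their TMM value of 1.90 ± 0.32 turned to −2.25 under library size alone and −0.56 under the total of all classes. The major snRNAs U1, U2 and U5 had shares of 1.86% ± 0.283, 2.94% ± 0.398 and 1.49% ± 0.415 in nuc and 0.874% ± 0.269, 2.37% ± 0.276 and 1.03% ± 0.205 in cyto. Their TMM values were 3.52, 2.77 and 2.97, and each turned negative under at least 1 scaling. snaR-A, the small Pol III RNA the study is about, took 0.113%, 0.0715% and 0.207% in nuc and 0.233%, 0.272% and 0.274% in cyto. Its TMM value of 1.47 ± 0.34 ran from −4.48 to 3.85 over the scalings and was positive in 3 of 7. None of its 14 features differed from the snaR-A total, with values between −0.12 and 0.20. These features are near-identical copies that can share reads, so the test could hardly tell them apart from their total.

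Within classes, many members held a different share of their class in the 2 fractions. Of 1503 features in 18 classes, 755 passed the test against their class total (50.2% called), 280 higher (18.6%) and 475 lower (31.6%) in nuc. Among C/D snoRNAs 49 were higher and 72 lower of 165, among H/ACA snoRNAs 16 and 62 of 120, among tRNAs 117 and 128 of 438, and among miRNAs 14 and 41 of 202. When libraries were scaled by TMM within each class, the split became 61 and 58 for C/D snoRNA, 39 and 33 for H/ACA snoRNA and 21 and 21 for miRNA, so the number of features above and below their class depends on what stands for the class. The plot of features within classes shows the spread and the class medians, which were −0.37 for C/D snoRNA, −1.25 for H/ACA snoRNA, −0.24 for tRNA and −0.64 for miRNA.

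**Figure D2:**
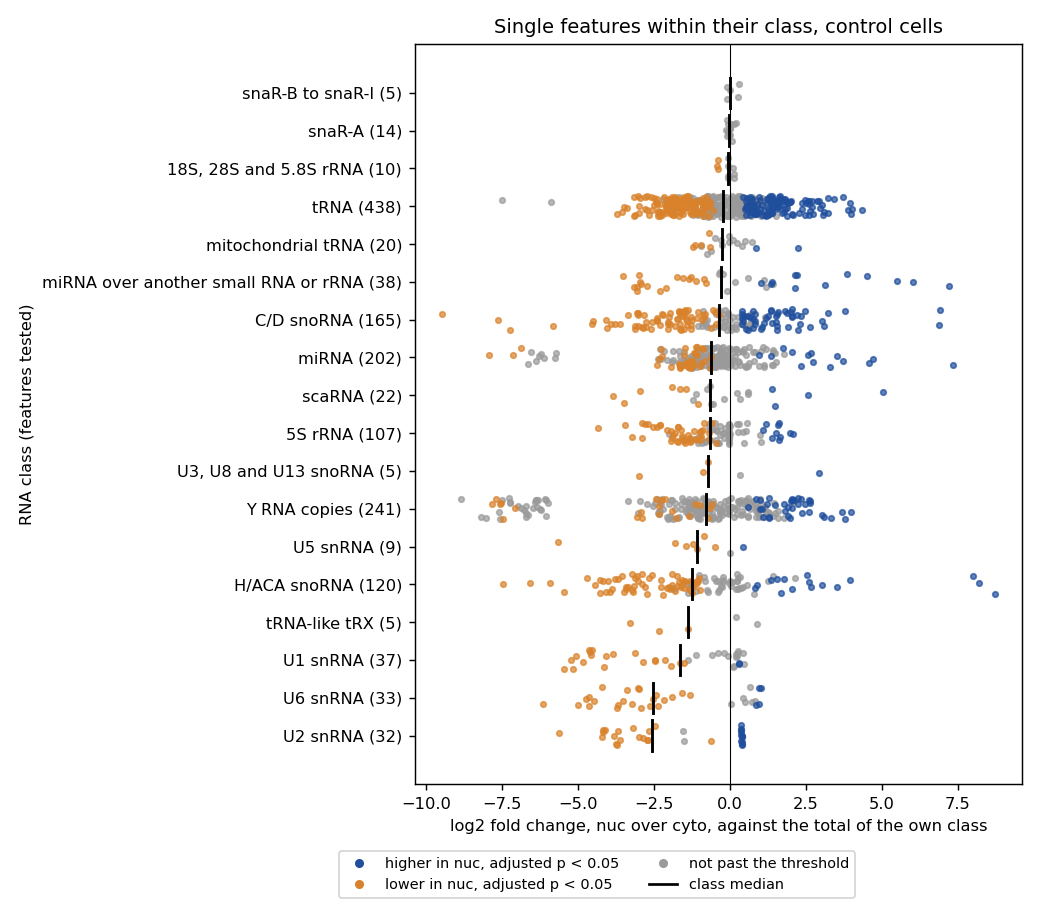
Log2 fold change of nuc over cyto against the own class total for 1503 features (points) in 18 RNA classes, with the class median as a black line and features past the threshold in blue (higher in nuc) or orange (lower in nuc). tRNA, C/D snoRNA, H/ACA snoRNA and miRNA hold members on both sides, while the 14 snaR-A features, near-identical copies, sit between −0.12 and 0.20.

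Among C/D snoRNAs with a mean of at least 50 counts, those with the highest and lowest values against their class were all intronic. Rarer ones lay further out, up to 6.91 (SNORD153) and down to −9.46 (SNORD3P3). By its name SNORD3P3 is a copy of U3, yet it was sorted into this class and read against the C/D total. SNORD48, in an intron of SNHG32, had 78979, 46011 and 63411 counts in nuc and 277, 205 and 390 in cyto. It made up 1.24% ± 0.29 of the C/D total in nuc and 0.0912% ± 0.0214 in cyto, a log2 fold change of 3.77 ± 0.24 (adjusted p = 1.2e-05). At the other end SNORD36B, in an intron of RPL7A, had 998, 785 and 388 counts in nuc and 1094, 719 and 930 in cyto, and fell by 4.49 ± 0.43 against its class (adjusted p = 7.18e-05). Its share of the C/D total was 0.0138% ± 0.0039 in nuc and 0.311% ± 0.136 in cyto, with no overlap. SNORD83A in RPL3 (3.09 ± 0.39) and SNORD32A in RPL13A (3.03 ± 0.14) followed SNORD48, and SNORD17 in SNX5 (−4.09 ± 0.51) and SNORD15B in RPS3 (−3.77 ± 0.40) followed SNORD36B. SNORD44, in GAS5, was the most abundant member, with about the same part of the C/D total in both fractions: 29.8%, 33.9% and 31.9% in nuc and 31.8%, 32.7% and 35.1% in cyto (−0.06 ± 0.07, adjusted p = 0.514).

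snoRNAs of the same host gene are made from the same primary transcript, yet they differed in the balance of the fractions. Of 17 host genes with at least 3 tested C/D snoRNAs (71 snoRNAs in all), 11 held members called higher and members called lower than the C/D total. Over all 165 C/D snoRNAs tested, 49 were higher and 72 lower (73.3% called). Whether hosts hold both directions more often than groups of unrelated C/D snoRNAs was not tested. The span between the highest and lowest member of a host had a median of 2.86 on the log2 scale, from 1.49 to 4.57. The widest span was in RPL13A, a ribosomal protein gene whose introns hold 4 snoRNAs. Their sequences are given because the members lie within one transcript and carry the same box motifs. They were read from the hg38 genome without the 25-nt flanks of the table, with box C (searched as TGATGN in the first 20 nt) and box D (CTGA in the last 15 nt, both on the strand of the gene) in capitals. SNORD32A is at chr19:49489966-49490047, SNORD33 at chr19:49490617-49490699, SNORD34 at chr19:49490907-49490972 and SNORD35A at chr19:49491175-49491260, all on the plus strand in introns.
SNORD32A: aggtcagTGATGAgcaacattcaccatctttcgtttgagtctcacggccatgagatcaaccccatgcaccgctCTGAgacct
SNORD33: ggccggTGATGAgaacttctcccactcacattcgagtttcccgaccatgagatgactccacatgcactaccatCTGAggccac
SNORD34: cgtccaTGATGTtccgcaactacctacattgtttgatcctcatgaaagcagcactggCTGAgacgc
SNORD35A: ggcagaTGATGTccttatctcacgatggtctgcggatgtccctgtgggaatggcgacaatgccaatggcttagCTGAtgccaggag

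SNORD32A had 24827, 21438 and 21639 counts in nuc and 140, 113 and 329 in cyto, 3.03 ± 0.14 above the C/D total (adjusted p = 2.44e-06). SNORD34 had 879, 522 and 692 counts in nuc and 115, 78 and 168 in cyto, and fell by 1.42 ± 0.28 against the total (adjusted p = 0.00279). Both are cut from introns of the same gene and differ in direction against their class. SNORD33, with 411, 195 and 378 counts in nuc and 44, 61 and 67 in cyto, had −1.54 ± 0.44 (adjusted p = 0.0175) and lost its call without nuc replicate 1, nuc replicate 2 or cyto replicate 2 (adjusted p up to 0.067). SNORD35A, at 9 to 156 counts a library, did not pass (−0.75 ± 0.54, adjusted p = 0.27).

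Another host showed the same mix. In SNHG1, a noncoding host with 8 tested C/D snoRNAs, SNORD31 had 122236, 66544 and 70225 counts in nuc and 973, 708 and 1520 in cyto (2.35 ± 0.18). SNORD30, in another intron, had 90379, 43763 and 36115 in nuc and 8249, 5605 and 18918 in cyto (−1.51 ± 0.21). SNORD25 stood with SNORD31 (1.56 ± 0.17), and SNORD27 (−1.44 ± 0.17) and SNORD28 (−1.73 ± 0.26) stood with SNORD30. The members named for SNHG1 were chosen after their values were seen. H/ACA snoRNAs showed it in 1 of 4 hosts, TAF1D, with members from −1.73 (SNORA1) to 1.77 (SNORA18). Of all 120 H/ACA snoRNAs tested, 65.0% were called.

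**Figure D3:**
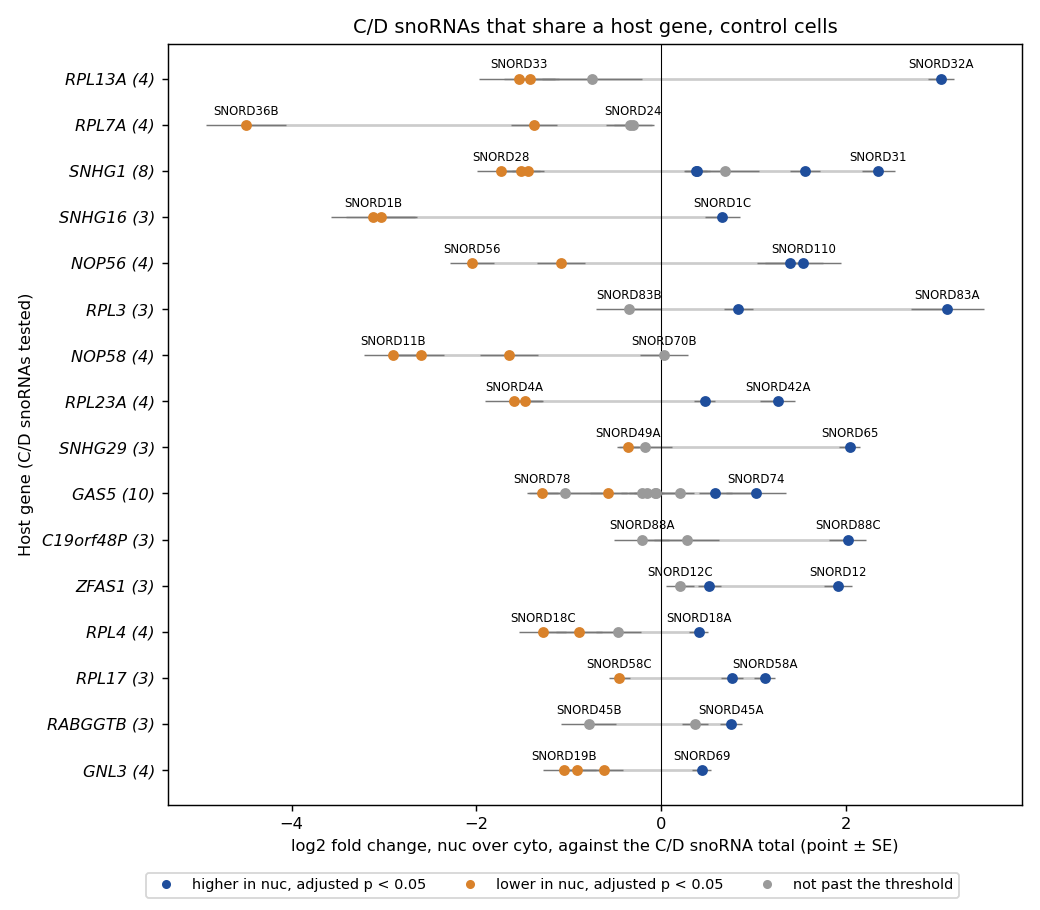
Log2 fold change of nuc over cyto against the C/D snoRNA total (point ± SE) for 67 C/D snoRNAs of 16 host genes with at least 3 tested members, with the lowest and highest member of each host named. RPL13A spans from −1.54 (SNORD33) to 3.03 (SNORD32A), and 10 of the 16 hosts drawn hold calls in both directions. Of all C/D snoRNAs tested, 73.3% were called.

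A C/D and an H/ACA snoRNA from each end of their class are shown with the same marking, with ACA (searched in the last 10 nt on the strand of the gene) in capitals for the latter. SNORD48 is at chr6:31835263-31835326 (plus strand), SNORD36B at chr9:133350095-133350168 (plus), SNORA47 at chr5:77080434-77080571 (minus, in a ZBED3 intron) and SNORA79 at chr14:81202695-81202834 (minus, in a GTF2A1 intron), all in hg38.
SNORD48: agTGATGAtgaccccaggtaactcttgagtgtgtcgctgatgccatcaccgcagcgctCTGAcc
SNORD36B: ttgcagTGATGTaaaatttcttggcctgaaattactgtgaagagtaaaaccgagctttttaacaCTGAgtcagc
SNORA47: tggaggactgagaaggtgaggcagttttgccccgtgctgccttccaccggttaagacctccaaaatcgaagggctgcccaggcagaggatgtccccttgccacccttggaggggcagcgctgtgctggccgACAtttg
SNORA79: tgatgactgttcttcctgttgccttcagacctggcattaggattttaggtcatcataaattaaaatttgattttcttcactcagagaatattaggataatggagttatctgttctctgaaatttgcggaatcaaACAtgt

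Both C/D boxes were found in 137 of 162 C/D snoRNAs examined (84.6%), in 43 of 49 higher ones, 54 of 70 lower ones and 40 of 43 that did not pass. ACA was found in 112 of 118 H/ACA snoRNAs (94.9%), in 16 of 16 higher, 58 of 60 lower and 38 of 42 others. The median length was 75 nt for higher and 77.5 nt for lower C/D snoRNAs, and 135 and 133 nt for H/ACA snoRNAs. The median GC content was 45.2% for higher and 40.7% for lower C/D snoRNAs. For H/ACA snoRNAs it was 55.2% for higher and 47.9% for lower ones, and 48.7% for those that did not pass. These shares describe the sequences and were not tested.

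SNORA47 had 1663, 2826 and 5543 counts in nuc and 7, 4 and 14 in cyto, and rose by 3.95 ± 0.45 against the H/ACA total (adjusted p = 0.000165). SNORA79 had 13, 12 and 17 counts in nuc and 126, 63 and 89 in cyto, although the H/ACA total was far larger in nuc. It made up 0.00779% ± 0.00126 of the total in nuc and 1.42% ± 0.67 in cyto, a log2 fold change of −7.48 ± 0.51 (adjusted p = 1.4e-05). The related SNORA79B in CCNB1IP1 had −5.46 ± 0.32 and SNORA62 in RPSA −4.71 ± 0.56. SNORA80A in URB1 had 63, 84 and 163 counts in nuc and 0 in each cyto library, and was at least 1.21-fold higher as a share of its class (floor of 3 counts in each cyto library). Reads antisense to a feature were counted too, so a value can include RNA of the opposite strand.

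Among the independently transcribed snoRNAs, U13 (SNORD13) had 4289, 4790 and 4623 counts in nuc and 101, 76 and 182 in cyto. It rose by 2.94 ± 0.20 against the total of U3, U8 and U13 (adjusted p = 1.43e-05). U8 (SNORD118), needed for processing of the large ribosomal subunit RNA, held 58.9% ± 7.8 of that total in nuc and 47.1% ± 11.4 in cyto and did not pass (0.32 ± 0.19, adjusted p = 0.191), but did without cyto replicate 3 (0.52, adjusted p = 0.0355). The U3 copy SNORD3C was lower, with 612, 462 and 474 counts in nuc and 755, 714 and 793 in cyto (−2.99 ± 0.26). U3 copies are near-identical, so their single values are uncertain. Of the scaRNAs, SCARNA20 took 26.1%, 43.1% and 49.7% of the scaRNA total in nuc and 1.20%, 1.04% and 1.34% in cyto (5.04 ± 0.33), and SCARNA22 followed (2.56 ± 0.29). SCARNA28 had 21, 35 and 36 counts in nuc and 591, 341 and 475 in cyto (−3.85 ± 0.32), with SCARNA14 (−3.48 ± 0.50) and SCARNA16 (−2.95 ± 0.34) beside it.

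Spliceosomal snRNAs differed by copy. The 12 features named RNU2-1, the U2 genes, had values of 0.36 to 0.40 and all were higher than the U2 total, while the U2 split of 12 higher and 18 lower became 0 and 20 with TMM within the class. The RNU2-1 copies are near-identical and can share reads, so these 12 values are not independent. The copy with the highest mean count (0.37 ± 0.11, adjusted p = 0.0259) lost its call in 7 alternatives, among them TMM within the class and the omission of any 1 library but cyto replicate 3 (adjusted p up to 0.304). Of 20 other U2 copies 18 were lower and 2 did not pass, with values from −5.61 to −0.61. The lowest, at chr9:86422915, had 359, 266 and 224 counts in nuc and 7549, 7329 and 7082 in cyto (adjusted p = 1.4e-05). Among U5 genes RNU5E-1 held 55.8% ± 2.5 of the U5 total in nuc and 41.3% ± 3.6 in cyto (0.43 ± 0.10), RNU5B-1 23.8% ± 1.2 and 23.9% ± 1.8 (−0.01 ± 0.11, not past the threshold) and RNU5A-1 13.5% ± 0.48 and 19.1% ± 1.4. RNU5A-1 was lower at −0.51 ± 0.11 (adjusted p = 0.00485) but at 0.14 with TMM within the class, and RNU5B-1 at 0.63. Among the snRNAs of the minor spliceosome, RNU11 had 8781, 9472 and 6055 counts in nuc and 1258, 1087 and 3252 in cyto (2.16 ± 0.20). RNU12 had 9095, 19100 and 11656 in nuc and 14761, 12537 and 28683 in cyto (−0.58 ± 0.13). RNU11 held 38.7% of their total in nuc and 8.64% in cyto, and RNU12 60.9% and 91.0%. A rise of RNU11 thus entails a fall of RNU12, and the values are not independent. Both come from a fit with small classes added after the data were seen.

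The small Pol III RNAs that were low in nuc also differed among themselves, in a fit with small classes added after the data were seen. RNY5 made up 38.6% ± 2.6 of the Y RNA total in nuc and 16.6% ± 3.0 in cyto (1.22 ± 0.14, adjusted p = 0.000184), and RNY3 9.62% ± 2.0 and 3.52% ± 0.17 (1.45 ± 0.18). RNY1 held a smaller part in nuc, with 17.5% ± 2.2 in nuc and 36.5% ± 4.5 in cyto (−1.06 ± 0.13, adjusted p = 0.00025). The shares of the 4 Y RNAs make up the whole Y RNA total, so a rise of some members entails a fall of others. These values are therefore not independent of each other. Among vault RNAs, VTRNA1-2 held 87.2% ± 3.5 in nuc and 94.5% ± 0.81 in cyto and did not pass (−0.11 ± 0.09, adjusted p = 0.29). VTRNA1-1 had 344, 278 and 224 counts in nuc and 2975, 2233 and 6062 in cyto (1.12 ± 0.22), and VTRNA1-3, with 24, 21 and 28 and 85, 49 and 135 counts, 3.05 ± 0.44. Both were higher than the vault total in nuc.

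tRNA counts were summed by anticodon family, since copies of a tRNA gene share reads. Of 49 families 26 passed against the tRNA total (53.1% called), 15 higher and 11 lower in nuc. tRNA-Leu-TAG took 4.40%, 5.89% and 6.94% of the tRNA total in nuc and 0.684%, 0.720% and 1.71% in cyto, a log2 fold change of 2.47 ± 0.37 (adjusted p = 0.000687). tRNA-His-GTG took 0.696%, 0.532% and 0.487% in nuc and 3.77%, 3.75% and 2.66% in cyto, and fell by 2.57 ± 0.19 (adjusted p = 2.05e-05). The 2 families lie at the ends of the plot of tRNA families. For both, the most abundant copy is shown, read from hg38 without flanks, with the anticodon in capitals: tRNA-Leu-TAG-1-1 at chr17:8120314-8120395 (minus strand) and a copy named tRNA-His-GTG-1-5 at chr6:27158127-27158198 (plus strand).
tRNA-Leu-TAG-1-1: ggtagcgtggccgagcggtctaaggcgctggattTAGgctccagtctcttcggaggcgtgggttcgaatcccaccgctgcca
tRNA-His-GTG-1-5: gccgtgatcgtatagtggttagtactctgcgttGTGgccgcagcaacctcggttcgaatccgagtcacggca

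The families that carried most tRNA counts moved in opposite directions. tRNA-Asp-GTC held 38.1%, 40.0% and 33.6% of the tRNA total in nuc and 19.9%, 24.0% and 24.7% in cyto (0.71 ± 0.11, adjusted p = 0.000834). tRNA-Gly-GCC held 6.45%, 6.03% and 4.70% in nuc and 16.4%, 15.6% and 13.7% in cyto (−1.41 ± 0.13, adjusted p = 6.72e-05). tRNA-Glu-CTC was higher (0.53 ± 0.14) and tRNA-Glu-TTC lower (−0.89 ± 0.11), so isoacceptors of glutamate differed. Leucine and serine families were split as well: Leu-TAA (1.73 ± 0.25), Leu-AAG (1.05 ± 0.16) and Ser-GCT (1.66 ± 0.14) were higher, and Leu-CAA (−2.37 ± 0.24), Ser-TGA (−2.13 ± 0.23) and Ser-AGA (−1.81 ± 0.23) lower. The initiator tRNA iMet-CAT, which starts translation, had 1.22 ± 0.24.

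Of 265 tested copies in the 26 families that passed, 152 passed in the direction of the family sum, 15 against it and 98 in neither. Arg-CCT was higher as a sum with 1 copy higher and 3 lower, and Glu-TTC was lower with 4 copies higher and 4 lower. Of 25 copies of Cys-GCA 4 were higher, and of 29 of Ala-AGC 7 were lower and 1 higher. All 10 tested copies of His-GTG were lower, 14 of 15 of Gly-GCC, 5 of 5 of Leu-CAA and 4 of 4 of Ser-TGA. All 8 copies of Ser-GCT and all 9 of Glu-CTC were higher, and 12 of 15 of Asp-GTC. These copies share reads and are not independent. Single copies moved further: tRNA-Thr-CGT-5-1 had 40, 65 and 67 counts in nuc and 54, 31 and 103 in cyto (4.02 ± 0.46), and tRNA-Lys-TTT-3-1 33, 8 and 6 in nuc and 2897, 1438 and 4346 in cyto (−3.56 ± 0.43). In mitochondrial tRNA, whose total was 0.23% ± 0.0406 of the class counts in nuc and 2.06% ± 0.497 in cyto, 2 of 20 features were higher than the total and 5 lower (4 and 4 with TMM within the class), and MT-TV was the highest. It had 6875, 5872 and 3691 counts in nuc and 7241, 6841 and 6790 in cyto, 2.25 ± 0.15 above the total (adjusted p = 1.24e-05). MT-TV lies between the 12S and 16S rRNA genes, and its feature takes in 25 nt of each side.

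**Figure D4:**
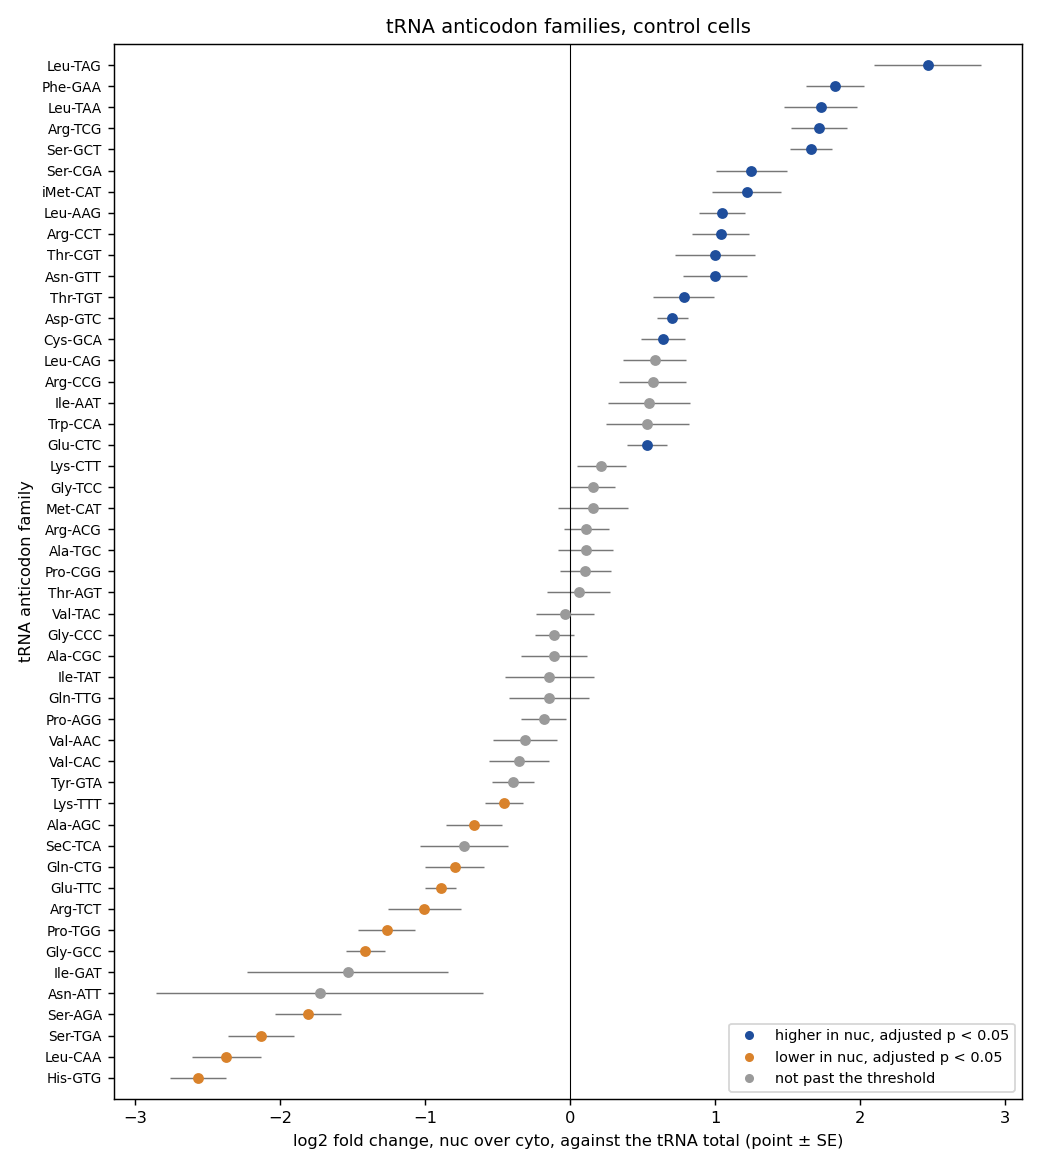
Log2 fold change of nuc over cyto against the tRNA total (point ± SE) for 49 tRNA anticodon families, with families past the threshold in blue (15 higher in nuc) or orange (11 lower in nuc). The values run from 2.47 for Leu-TAG to −2.57 for His-GTG.

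Among miRNAs the members of the miR-17-92 cluster, which lie in 1 intron of MIR17HG on chromosome 13 and share a primary transcript, stood far apart. MIR18A took 6.18%, 10.2% and 9.60% of the miRNA total in nuc and 0.218%, 0.254% and 0.609% in cyto (4.59 ± 0.47, adjusted p = 0.0001). MIR20A (3.70 ± 0.27), MIR17 (3.54 ± 0.26) and MIR19B1 (2.59 ± 0.47) were higher too, so that 4 of the 6 members were higher. MIR92A1, the most abundant of the cluster in cyto, had 192, 138 and 130 counts in nuc and 8521, 6616 and 7393 in cyto and was lower (−1.10 ± 0.19, adjusted p = 0.00167). MIR19A, with 17, 33 and 29 counts in nuc and 803, 660 and 280 in cyto, did not pass (0.17 ± 0.37, adjusted p = 0.728). The features of the cluster cover the 3p arms, each with 25 nt on either side, so their values do not stand for the 5p arms. The features of MIR15A, MIR16-1 and MIR4449 cover the whole hairpin. In all 153 of the 202 miRNA features tested were matched to an arm or hairpin of RefSeq (GRCh38.p14).

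The mature sequences of these arms and of 4 miRNAs described next are given with the seed (bases 2 to 8, the part that pairs with target mRNAs) in capitals, from RefSeq.
hsa-miR-17-3p: aCUGCAGUgaaggcacuuguag
hsa-miR-18a-3p: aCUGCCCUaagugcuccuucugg
hsa-miR-19a-3p: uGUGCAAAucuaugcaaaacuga
hsa-miR-19b-3p: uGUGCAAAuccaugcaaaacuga
hsa-miR-20a-3p: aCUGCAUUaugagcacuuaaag
hsa-miR-92a-3p: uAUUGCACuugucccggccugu
hsa-miR-15a-5p: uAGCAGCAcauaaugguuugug
hsa-miR-16-5p: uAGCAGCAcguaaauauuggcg
hsa-miR-424-5p: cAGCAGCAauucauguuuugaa
hsa-miR-4449: cGUCCCGGggcugcgcgaggca

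Features of miRNAs with a shared seed had unequal values. miR-19a-3p and miR-19b-3p share the seed GUGCAAA, and their features had 0.17 and 2.59. miR-15a-5p, miR-16-5p and miR-424-5p share the seed AGCAGCA. The MIR424 feature covers the 5p arm, while those of MIR15A, MIR16-1 and MIR16-2 cover the whole hairpin. Their values therefore do not compare the mature miRNAs alone. The miR-15a-5p arm held 13.6%, 3.70% and 9.68% of the MIR15A count in nuc. MIR424 had 5, 2 and 1 counts in nuc and 419, 341 and 242 in cyto, the lowest value by the naming rule (−2.41 ± 0.44, adjusted p = 0.00216). MIR15A and MIR16-1, which lie together in an intron of DLEU2 and were chosen after their values were seen, had 4.70 ± 0.51 and 3.30 ± 0.32. MIR16-2, a second gene of miR-16-5p in SMC4, had −0.89 ± 0.38 and did not pass (adjusted p = 0.0798). MIR4449, in an intron of DANCR, had 205, 162 and 162 counts in nuc and 14, 22 and 35 in cyto, the highest value of the class (7.34 ± 0.55, adjusted p = 2.05e-05).

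For 15 hairpins the table held a feature over the whole hairpin and one over a mature arm, an alternative added after the data were seen. In 9 of them the arm held over 95% of the hairpin count in every library. In 3 the arm held a smaller part in nuc, with no overlap between the groups, and in MIR12136 a larger part (96.8%, 87.0% and 95.2% in nuc and 82.3%, 83.1% and 85.2% in cyto). For MIR15A it was 13.6%, 3.70% and 9.68% in nuc and 88.1%, 73.3% and 59.4% in cyto. For MIR106B it was 46.4%, 40.9% and 58.3% in nuc replicates 1, 2 and 3 and at least 99.7% in each cyto library, from 28, 22 and 12 hairpin counts in nuc. For MIR4449 it was 14.6%, 41.4% and 22.2% in nuc and 92.9%, 86.4% and 74.3% in cyto. The remainder are reads of the hairpin outside the arm and its flanks. These hairpins were chosen by this measure, so no test is given, and 3 against 3 libraries cannot reach an exact two-sided permutation p below 0.1.

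**Figure D5:**
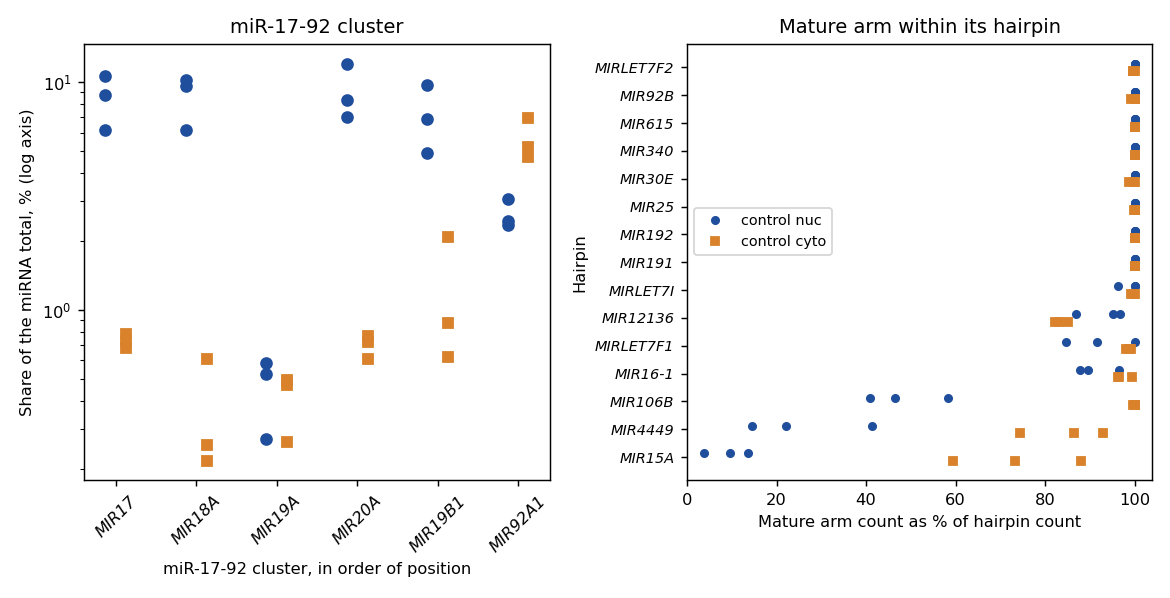
Left, share of the miRNA total (%, log axis) of the 6 miR-17-92 members in the 3 control nuc (circles) and 3 control cyto (squares) libraries. Right, mature arm count as a percentage of the hairpin count for 15 hairpins in the same libraries. MIR92A1 is lower in nuc while MIR17, MIR18A, MIR20A and MIR19B1 are higher, and the arms of MIR15A, MIR4449 and MIR106B hold a smaller part of the hairpin in nuc and that of MIR12136 a larger one.

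The let-7 family holds broadly expressed miRNAs, and its median lay near that of all miRNAs. Of 12 members 10 were tested, with 0 higher, 3 lower (MIRLET7A2, MIRLET7C and MIRLET7E) and 7 not past the threshold, and the median was −0.51 beside −0.64 for all miRNAs. All 3 calls were lost with TMM within the class, and at least 1 of them was lost without nuc replicate 1, 2 or 3 or cyto replicate 1 or 2 (adjusted p up to 0.0848). Of 11 miRNAs typical of other tissues, such as miR-122 of liver and miR-142 of blood, none was tested and the sum over 6 libraries was 36 counts. The 4 imprinted snoRNAs looked up had 0 counts. Of 4 miR-29 family members 1 was tested (−0.44), and of 7 miRNAs known to be made without Drosha or Dicer 3 were tested (median −0.23), and none of these passed. MIR1291 overlaps the H/ACA snoRNA SNORA2C in KANSL2: it had 30808, 34603 and 37000 counts in nuc, and SNORA2C 30812, 34608 and 37004. Such miRNA features that lie over another small RNA or rRNA were kept as a class of their own, 38 tested.

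Over the whole table, 6325 of 26774 features differed between the fractions under TMM (23.6% called), 2488 higher (9.29%) and 3837 lower (14.3%) in nuc. Without TMM, on library size only, 665 were higher and 25773 lower. Most features were long noncoding RNA (lncRNA) features, with 21101 tested, 993 higher and 1582 lower. Of those taken by the naming rule the highest was SNHG32 (8.72 ± 0.43), with 109534, 63701 and 81069 counts in nuc and 652, 566 and 1214 in cyto. Host introns were read from the GENCODE gene annotation and not from these lncRNA features. The feature of SNORD48, which reaches past the start of that of SNHG32, had 189273 counts beside 256736 of SNHG32. That of SNORD96A, which reaches past the end of lnc-TRIM52-2 (7.54 ± 0.39), had 37422 counts beside 37831. Both lncRNA values thus rest mostly on reads of a snoRNA, and the rule against such features did not see them because it took only short features lying wholly inside. AL049646.2 (7.90 ± 0.57), which touches no short feature with counts, had 61, 125 and 191 counts in nuc and 2, 0 and 4 in cyto. At the other end lnc-DMAC1-8 had 0 counts in each nuc library and 125, 89 and 93 in cyto, and was at least 8.98-fold lower in nuc relative to the TMM-scaled floor of 3 counts. HSALNG0085924 had 2, 3 and 1 counts in nuc and 670, 388 and 586 in cyto (−6.12 ± 0.49), and held no annotated small RNA with counts.

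The same contrast was measured in siSSB cells. Across features with a mean of at least 50 counts, the nuc over cyto values of the 2 contrasts, which share no library, had a Pearson correlation of 0.971 over 149 C/D snoRNAs, 0.915 over 85 H/ACA snoRNAs, 0.918 over 340 tRNAs and 0.934 over 101 miRNAs. It was 0.267 over 12 snaR-A features, whose values hardly vary. Lower values were also found over 91 Y RNA copies (0.682) and 10 U6 snRNA features (0.692). The other classes with a value lay between 0.948 (5S rRNA) and 0.999 (U2 snRNA). By rank (Spearman) the correlation was 0.742 for miRNAs and 0.913 for tRNAs. Features share class totals and depth, so these describe likeness only. By name, SNORD48 had 3.77 in control and 4.21 in siSSB cells, SNORD36B −4.49 and −4.32, SNORA79 −7.48 and −6.25, MIR18A 4.59 and 4.41, and tRNA-His-GTG −2.57 and −2.42. Among anticodon families the gap was widest for tRNA-Ser-TGA (−2.13 and −0.63), followed by tRNA-Thr-TGT (0.78 and 2.17) and tRNA-Ser-CGA (1.25 and 2.53), and no family passed the test of the difference. Among single features the test of the difference called 3 of 1503 features (0.2% called), with 115 at an unadjusted p under 0.05 and 23 called by DESeq2.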

How the data were processed

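Fractions were made with the mirVana PARIS kit and libraries with the NEBNext small RNA kit, and the titles note Plus PNK. The deposited table holds raw counts per feature, which the authors made with Bowtie2, bedtools and hg38 (submitters' processing notes, which give no versions). Features carry 25 nt flanks, strand was not used (opposite-strand snoRNAs had equal counts in 14 of 14 cases), and a read counts in each overlapping feature. The members and gene lists were chosen with earlier results of these data known.

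Of 175935 features, 7114 distinct ones in 27 classes were used for the class analysis. The main test was the quasi-likelihood test of edgeR 4.0.16 in R 4.3.3, with Benjamini-Hochberg adjustment and a threshold of 0.05, on control nuc against control cyto. All features and class totals were scaled by TMM. Features against their class used the class total of each library as offset, with at least 10 counts in 3 libraries, and shares are percentages of the class or of all class counts. DESeq2 1.42.0, 7 scalings, filters, a replicate block and the omission of each library were alternatives. Named features had a mean of at least 50 counts, passed the test without overlap of shares, and were up to 3 per direction and class, with the gene lists added. The snoRNAs of 1 host gene are counted in the host totals but not reported here. A further lncRNA rule took up to 3 per direction among features over 500 nt that hold no short feature, lying wholly inside, with at least 50% of their counts. Deviations of same-numbered nuc and cyto samples correlated at 0.153, 0.233 and 0.213 over 4301 features, and those with unlike numbers at −0.247 to 0.141. The labels do not say whether replicate numbers pair the samples. The main test took no pairing into account, and the replicate block did. A floor of 3 counts is 3.66e-05% to 8.05e-05% of a library's class counts. Intervals and floors cover counting error only. On simulated data, the class fit over 1503 features called 21.0% of features changed by 1 and 95.0% of those changed by 3 on the log2 scale. The simulation gave every feature the same dispersion, which was not estimated from these libraries. These percentages therefore need not hold for the measured features.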

Additional observations from a re-analysis of the deposited data

Results flagged for a closer look

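A test of the difference between the nuc over cyto values of siSSB and control cells, each against the class total, passed for 3 of 1503 features. tRNA-Tyr-GTA-3-1 differed by 3.30 ± 0.41 on the log2 scale (edgeR, adjusted p = 0.00335). It had 64, 44 and 64 counts in control nuc and 586, 316 and 1052 in control cyto. The siSSB cells gave 167, 203 and 175 counts in the nuclear fraction and 171, 159 and 170 in the cytoplasmic one. SNORA79B differed by 2.10 ± 0.36 (adjusted p = 0.0451), with −5.46 in control and −3.35 in siSSB cells. tRNA-Pro-TGG-1-1 differed by 1.63 ± 0.29 (adjusted p = 0.0451), with −2.42 in control and −0.79 in siSSB cells. With the replicate block SNORA79B and tRNA-Pro-TGG-1-1 both had an adjusted p of 0.102.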

How the results depend on the processing

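The count of features that differed between the fractions depended on the scaling, from 6325 under TMM to 26438 with library size alone, 25853 with the all-class total, 26319 with the snoRNA total, 16282 with the miRNA total and 23230 with the whole-cell mix, and was 3444 without carried features. Without 1 library it was 5048 to 6108, class totals called were 24 to 26 and features against their class 606 to 818. Neighbouring pairs called were 0 with the replicate block and 0 to 2 without 1 library. The difference between siSSB and control cells was called for 23 features by DESeq2, 1 with the replicate block, 1 with TMM within the class and 1 to 3 without 1 library. RNU5A-1 turned to 0.14 with TMM within the class. RNU5B-1 was at 0.63 with TMM within the class and 0.40 without the top feature in the total, and at −0.066 to 0.027 without 1 library. MIR19A was at −0.070 to 0.44 without 1 library. The scaRNA total was −2.25 with library size alone and −0.56 with the all-class total. With the miRNA total as scale, tRNA was at 0.44, 7SK RNA at 1.22, U7 snRNA at 0.29 and mitochondrial tRNA at 1.89. The 18S, 28S and 5.8S rRNA total was −3.73 with library size alone, −2.03 with the all-class total, −5.53 with the snoRNA total, −1.40 with the whole-cell mix and −0.060 with no filter. The 5S rRNA total was −2.51, −0.81, −4.31 and −0.17 under the first 4 of these. The cause of these changes was not tested. Of 88 named features that passed, 64 kept side and direction in every alternative run. The replicate block ended the call of 4 of the 88 and of the mitochondrial tRNA total (adjusted p = 0.0606). The mitochondrial tRNA call was also lost with DESeq2 size factors and without nuc replicate 1, 2 or 3 or cyto replicate 1. Alternatives on small classes and hairpin arms were chosen after seeing the data.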
